A study of Rattus norvegicus with 8 samples.

Results

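Collagens are the structural proteins of the extracellular matrix, and the genes described here encode collagen chains and the proteins that fold, cut, crosslink and organise them. The members were every gene with a symbol of the form Col, number, a, number (such as Col1a2) that had a uniquely named probe set, together with 14 named genes for a collagen chaperone, modifying enzymes, matrix glycoproteins and small proteoglycans. This gave 39 of the 14506 genes measured, of which 25 encode collagen chains, and all 14 named genes were measured. The rule itself used no measured value except that the brightest probe set was kept where a gene had several, which concerned Col6a4 alone. It was, however, chosen with earlier results of these data known. Another 20 collagen genes, among them Col4a2, Col6a1, Col6a2, Col6a3, Col15a1 and Col18a1, were not analysed here.

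RNA came from the hypothalamus of female Sprague-Dawley rats aged 21 days and was hybridised to Affymetrix Rat Gene 1.0 arrays, with 8 arrays in 4 groups of 2, replicates A and B. Con offspring had normally fed mothers, and CR offspring had mothers whose calories were cut by 50% from gestation day 11 to 21 and again after birth. Each diet group was split into saline (Con-s, CR-s) and leptin (Con-l, CR-l), given from postnatal day 2 to 8, so no group was untreated. The labels do not say whether a sample pools animals or litters, so every test below measures the spread between these 8 samples, which may be in part technical. In such bulk RNA, fewer cells of a type and less RNA per cell cannot be told apart.

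A collagen chain is hydroxylated on proline and lysine in the endoplasmic reticulum, wound with its partners into a triple helix under the care of a dedicated chaperone, secreted, trimmed by proteases and crosslinked by lysyl oxidase. Fibrillar collagens then assemble into fibrils whose thickness is set in part by small leucine-rich proteoglycans that bind their surface, while type IV collagen builds the sheet of basement membranes. In the brain these genes are known mainly from the meninges, the walls of blood vessels and the choroid plexus rather than from neurons.

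Of the 39 genes, 4 fell in restricted offspring when the diet difference was averaged over saline and leptin: Serpinh1, the collagen chaperone, P4ha1, a prolyl hydroxylase subunit, Ogn, the proteoglycan osteoglycin, and Col1a2, a chain of type I collagen. None rose. To place these genes in the genome, 30-base stretches upstream of their annotated starts are shown, read from RefSeq promoters of the rat build GRCr8, with a matched motif in capitals. Promoter entries were matched by symbol for 30 of the 39 members.
Serpinh1, chr1:163062988-163063017, minus strand, heat shock element pair: ccaactttccaGAAGTTTCttaggacaggc
Serpinh1, chr1:163063088-163063117, minus strand, GC box: ccgcaggcatagGGGCGGgagcccgggtgg
Col1a2, chr4:33518323-33518352, plus strand, CCAAT box on the opposite strand: cccctgccctcccATTGGtggagacgtttt
Col1a2, chr4:33518375-33518404, plus strand, TATA box: aaacttttcccaTATAAAtagggcaggtct
Ogn, chr17:15259200-15259229, minus strand, TATA box: tttaaaaagattTATAAActagcattcact

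The motifs were searched on both strands of the 300 bases around each start. The pair GAANNTTC, a minimal form of the site bound by heat shock factors, began 30 bases before the Serpinh1 start and was held by 3 of 30 member promoters (Serpinh1, Plod1 and Plod2) and 8.34% of all 27457 promoters. CCAAT was held by 9 of 30 and 37.7%, GGGCGG by 18 of 30 and 34.9%, TATAAA by 5 of 30 and 14.3%, and ACGTG, the core of the hypoxia response element, by 4 of 30 and 19.7%. In Ogn, 2 TATAAA matches on opposite strands overlap, beginning at -224 and -222 from the annotated start. The listed Col1a2 transcript starts with ATG, so its TATA box began at position -170 counted from that base. In P4ha1 the single ACGTG match and the single GGGCGG match lay after the start, at bases 12 and 31, and are not shown. These matches are descriptions of the letters only.

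Array medians lay between 111.8 and 114.1 in the deposited linear intensities, and replicates of a group correlated at 0.9947 to 0.9955 across probe sets, against a lowest value of 0.9938 to 0.9947 with any array. For CR-s replicate A the correlation with its own replicate, 0.9947, was no higher than its lowest with any array. CR-s replicate B had the narrowest spread (interquartile range 2.92 on the log2 scale, against 3.01 to 3.08 on the other arrays). The deposited table holds no detection calls, so presence or absence cannot be stated for any gene. All 13 listed hypothalamic peptide genes had probe sets, and their summed intensity lay between 13637 and 16515 over the 8 arrays. Con-l replicate A carried 887 of summed intensity for 7 pituitary genes where the other arrays had 328 to 388, a difference made by Cga, at 9.19 there and 5.83 to 6.19 elsewhere.

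Among the folding and modifying proteins, the chaperone and one hydroxylase subunit fell while their partners did not pass the test. Serpinh1 encodes the heat shock protein that binds procollagen in the endoplasmic reticulum. Its log2 intensity was 9.12 and 9.09 in Con-s, 9.20 and 9.22 in Con-l, 8.68 and 8.65 in CR-s, and 8.35 and 8.46 in CR-l (replicates A and B). Replicates lay close together, every CR array was below every Con array, and the CR-l pair was below the CR-s pair. Averaged over treatments it fell 1.54-fold, from 9.16 ± 0.07 to 8.54 ± 0.16 (SD, n = 4), a log2 difference of -0.62 (SE 0.04, 95% confidence interval -0.72 to -0.52, limma adjusted p = 0.00977). Of all 14506 genes it had the smallest p in this comparison.

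P4ha1 encodes a catalytic subunit of the prolyl 4-hydroxylase that stabilises the triple helix. Its values were 8.38 and 8.43 in Con-s, 8.55 and 8.44 in Con-l, 8.05 and 8.03 in CR-s, and 7.99 and 7.95 in CR-l. The gap between the diets was again wider than any gap between replicates, and P4ha1 fell 1.36-fold (log2 -0.45, SE 0.05, interval -0.55 to -0.34, adjusted p = 0.0207). Its sister subunit P4ha2 differed by -0.04 (SE 0.04, interval -0.14 to 0.06) and did not pass, with overlapping groups.

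The lysyl hydroxylases, which prepare collagen for crosslinking, did not pass. Plod1 differed by -0.04 (SE 0.05) and Plod2 by -0.24 (SE 0.10, adjusted p = 0.326). For Plod2, CR-s replicate B stood low at 5.61 while the other 7 arrays lay between 5.97 and 6.27, and without that array the difference was -0.12. Lox, the crosslinking enzyme lysyl oxidase, was the most variable member. It measured 6.91 and 7.50 in Con-s, 7.31 and 7.60 in Con-l, 7.23 and 6.42 in CR-s, and 7.88 and 7.06 in CR-l, so its diet difference of -0.18 had an interval of -0.77 to 0.41 and was 0.0197 without CR-s replicate B and 0.0241 without CR-l replicate B. Pcolce, an enhancer of the protease that removes the C-terminal propeptide, differed by -0.03 (interval -0.27 to 0.21). Of these 7 genes 2 were called lower, against 0.882% of all genes, and the median difference was -0.18.

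**Figure D1:**
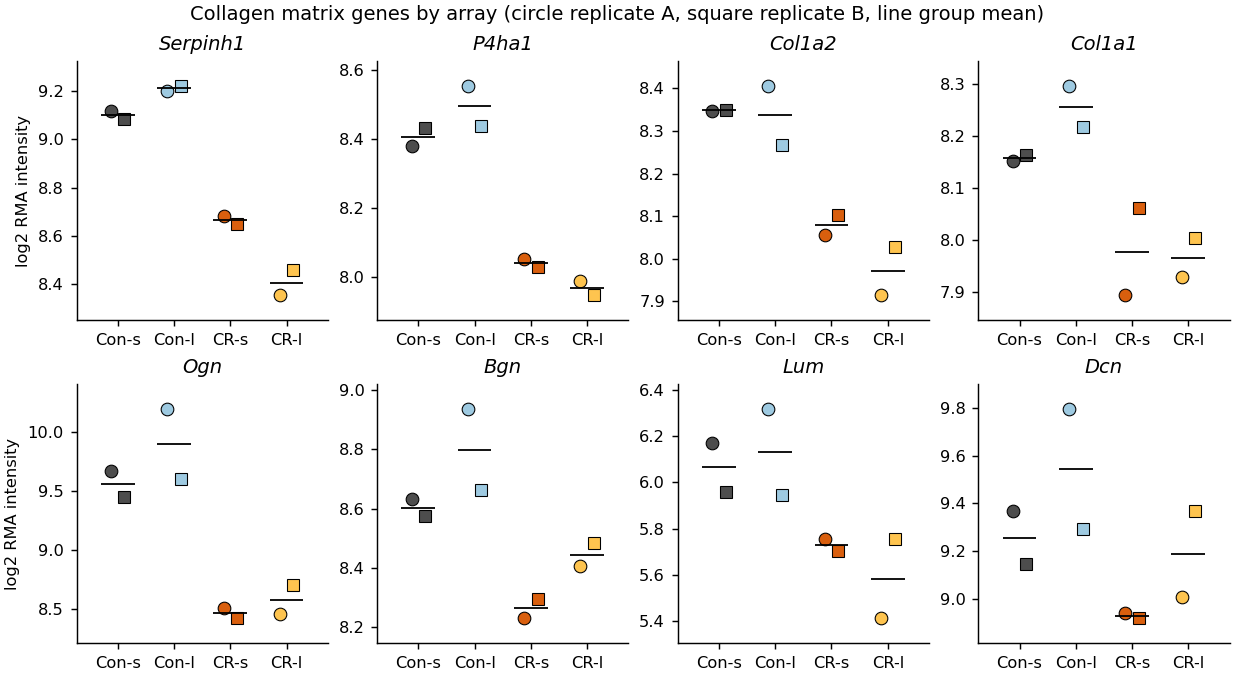
Log2 RMA intensity (vertical axes, a separate range for each gene) of 8 member genes in the 4 groups, with replicate A as a circle, replicate B as a square and the group mean as a line. For Serpinh1, P4ha1, Col1a2, Col1a1, Ogn, Bgn and Lum all CR arrays lie below all Con arrays, while for Dcn the CR-l replicate B reaches 9.37, the level of Con-s replicate A.

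Among the fibrillar collagens, a chain of type I was the one that passed. Col1a2, the second chain of type I collagen, measured 8.35 and 8.35 in Con-s, 8.41 and 8.27 in Con-l, 8.06 and 8.10 in CR-s, and 7.92 and 8.03 in CR-l. No CR array reached a Con array, and Col1a2 fell 1.25-fold (log2 -0.32, SE 0.05, interval -0.44 to -0.20, adjusted p = 0.0416). Col1a1, which supplies the other chain of the same trimer, had values of 8.15 and 8.16 in Con-s, 8.30 and 8.22 in Con-l, 7.89 and 8.06 in CR-s, and 7.93 and 8.003 in CR-l. The groups did not overlap here either, but the difference of -0.24 (SE 0.05, adjusted p = 0.0959) did not pass over all genes.

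Col3a1, the partner of type I collagen in soft connective tissue, differed by -0.09 (interval -0.20 to 0.03), and Col5a1, a chain of the collagen that nucleates fibrils, by -0.08 (interval -0.19 to 0.03). The other 6 fibrillar chains lay between -0.07 (Col11a2) and 0.04 (Col5a3). Of the 10 measured fibrillar chains 8 had a negative difference, against 49.7% of all genes, and 1 was called lower, against 0.882%. Col3a1, Col5a1 and these 6 chains all had overlapping groups. The intervals of Col3a1 and Col5a1 do not include the Col1a2 estimate of -0.32. The Col1a2 interval ended at -0.198, however, and overlaps that of Col3a1, which began at -0.204. Col3a1 and Col5a1 were also dimmer, at a mean log2 of 6.77 and 6.80 against 8.18 for Col1a2. The difference between genes was not tested.

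Outside the fibrillar class no collagen chain passed. Col12a1, a collagen that sits along the surface of fibrils, came nearest, with 7.17 and 7.16 in Con-s, 7.22 and 7.23 in Con-l, 7.01 and 6.91 in CR-s, and 6.99 and 7.07 in CR-l. The diets did not overlap, and the difference was -0.20 (SE 0.04, adjusted p = 0.0923). The other 4 fibril-associated chains, Col9a1, Col9a2, Col14a1 and Col16a1, lay between -0.08 and 0.07.

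Col4a1, the common chain of basement membranes, measured 7.17 and 7.23 in Con-s, 7.31 and 7.19 in Con-l, 7.11 and 7.15 in CR-s, and 7.09 and 6.97 in CR-l. Each CR array was below each Con array, by a small margin, and the difference of -0.15 (SE 0.05, interval -0.27 to -0.03, adjusted p = 0.231) did not pass. Col4a3 and Col4a4, chains of specialised basement membranes and dimmer at a mean log2 of 6.45 and 6.49, stood at -0.00 and -0.01. Their intervals, -0.11 to 0.10 and -0.14 to 0.12, span 0.

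The remaining chains were level or slightly higher on average, none passing. Except for Col23a1 (mean log2 7.09) they were dim, with means of 6.15 to 6.800, below the array medians of 6.805 to 6.834. The 3 transmembrane collagens had differences of 0.09 (Col13a1), 0.06 (Col17a1) and 0.03 (Col23a1). Col8a1 and Col10a1, short-chain collagens, had 0.05 and 0.08, Col7a1, the collagen of anchoring fibrils, -0.01, and Col6a4 0.01. Several of these were highest on CR-s replicate B, such as Col10a1 at 6.52 (5.99 to 6.26 elsewhere), Col6a4 at 6.48 (6.07 to 6.31) and Col17a1 at 6.60 (6.30 to 6.44), the array with the narrow spread. Without that array the differences were -0.0490 for Col10a1, -0.0942 for Col6a4 and 0.0078 for Col17a1.

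The small leucine-rich proteoglycans, which coat collagen fibrils, included the member with the widest difference, Ogn (osteoglycin). Ogn measured 9.67 and 9.45 in Con-s, 10.20 and 9.60 in Con-l, 8.50 and 8.42 in CR-s, and 8.46 and 8.70 in CR-l. Con-l replicate A was the highest array, and the lowest Con array was still well above the highest CR array. Ogn fell 2.31-fold (log2 -1.21, SE 0.13, interval -1.52 to -0.90, adjusted p = 0.0223).

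Bgn, biglycan, measured 8.63 and 8.57 in Con-s, 8.94 and 8.66 in Con-l, 8.23 and 8.30 in CR-s, and 8.41 and 8.48 in CR-l. Lum, lumican, measured 6.17 and 5.96 in Con-s, 6.32 and 5.94 in Con-l, 5.76 and 5.70 in CR-s, and 5.41 and 5.75 in CR-l. In both the diets were separated without overlap, with differences of -0.35 (SE 0.07, adjusted p = 0.0674) for Bgn and -0.44 (SE 0.11, adjusted p = 0.117) for Lum, neither passing.

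Dcn, decorin, measured 9.37 and 9.14 in Con-s, 9.79 and 9.29 in Con-l, 8.94 and 8.92 in CR-s, and 9.01 and 9.37 in CR-l. Con-l replicate A and CR-l replicate B stood high within their groups, the diets overlapped, and the difference of -0.34 (SE 0.13, adjusted p = 0.262) did not pass. Fmod, fibromodulin, differed by -0.09 (interval -0.21 to 0.02). All 5 proteoglycans had a negative difference (median -0.35), against 49.7% of all genes, and 1 of them was called lower, against 0.882%. Con-l replicate A was the highest Con array for 15 of the 39 members, among them Ogn, Bgn, Lum and Dcn but not Fmod. Without that array the differences of Ogn, Bgn, Lum and Dcn were -1.06, -0.28, -0.35 and -0.22.

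The matrix glycoproteins did not follow. Sparc, which binds collagen and is also made in quantity by glia, lay between 12.83 and 12.95 on all 8 arrays (difference 0.02, SE 0.04, interval -0.08 to 0.12). Fn1, fibronectin, differed by 0.04 (interval -0.10 to 0.19) on average, with opposite signs under saline and under leptin.

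Read as a set, the members leaned lower in CR. The median difference over the 39 was -0.04 (-0.0697 to -0.0058 without 1 array), against 0.00 over all genes. That is close in size to the spread between arrays within groups, an SD of 0.036 for the median of the members' centred log2 values. Relative to the Con-s mean, the member median was 0.002 on CR-s replicate B and -0.017 on Con-s replicate A, so the diets overlapped on this measure. A negative difference was found in 27 of the 39, against 49.7% of all genes. By limma's adjusted p, 4 of 39 were called lower, where 0.882% of all genes were, and 0 of 39 were called higher, where 0.324% were. By limma's unadjusted p under 0.05, 10 were lower and 0 higher, against 9.04% and 6.71% of all genes. All 4 CR arrays lay below all 4 Con arrays in 9 members, against 6.67% of all genes, and above them in 0, against 4.52%. The 25 collagen chains had a median of -0.01 with 1 called, and the 14 named genes a median of -0.21 with 3 called. Because the list was chosen with earlier results of these data known, these shares and those below are descriptions, not independent tests.

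The 4 calls depend on how many features share the adjustment and on single arrays. With all 29215 probe sets tested together 0 members passed (limma, adjusted p = 0.056 for Serpinh1, 0.0788 for P4ha1 and Ogn, and 0.116 for Col1a2). Leaving out either Con-s array left 0 (Serpinh1 adjusted p = 0.0508 without A and 0.0791 without B). Leaving out any one of the 4 CR arrays left 1, Serpinh1. Leaving out array A of Con-l left 2, Serpinh1 and Ogn, and leaving out its array B left 3, with Col1a2 lost.

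**Figure D2:**
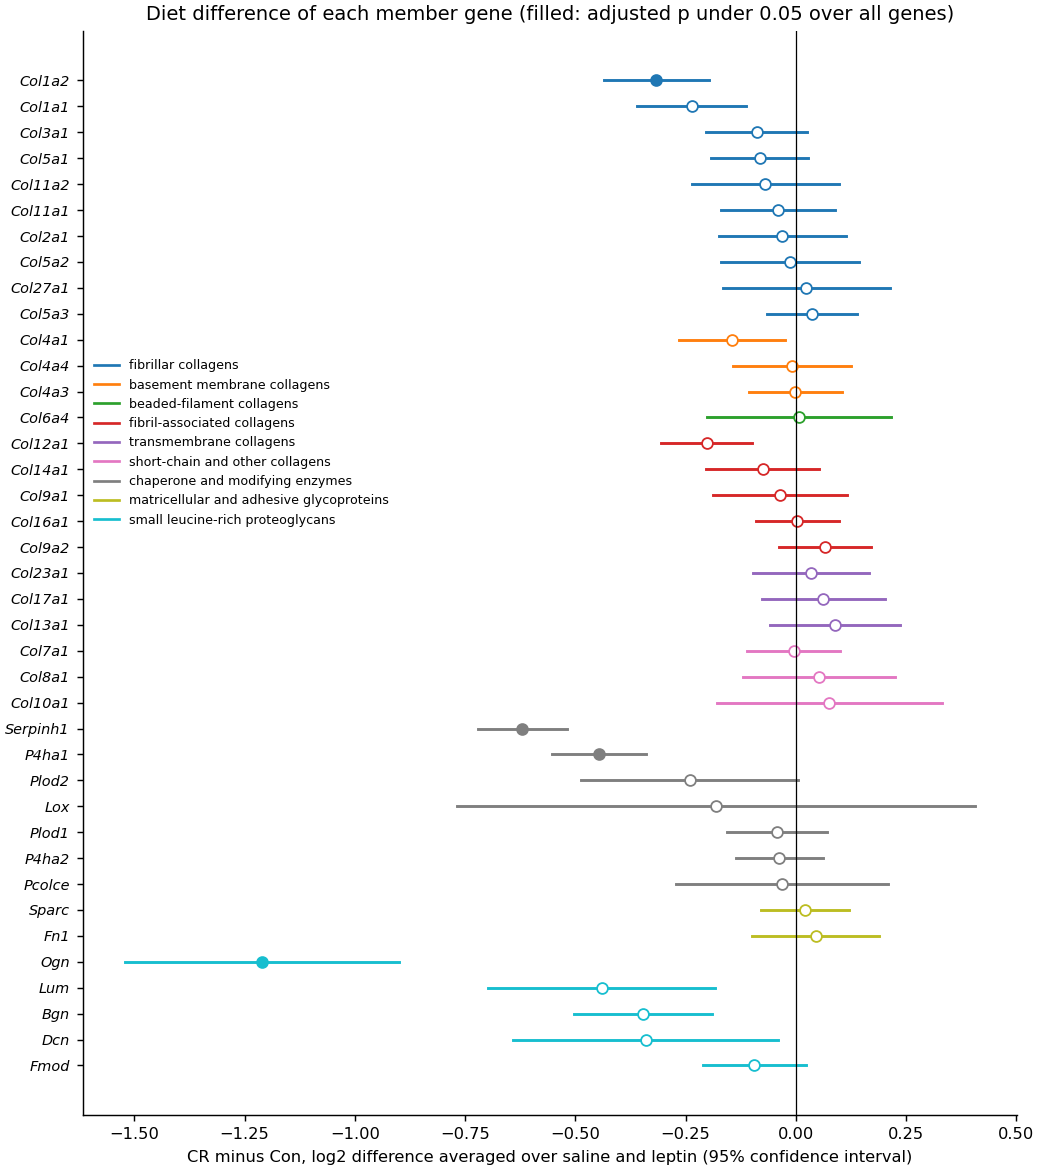
Log2 difference of CR minus Con averaged over saline and leptin (horizontal axis) for each of the 39 member genes (rows, coloured by class), with 95% confidence intervals. Filled points are the 4 genes at an adjusted p under 0.05, Serpinh1, P4ha1, Ogn and Col1a2, and most collagen chains lie within 0.1 of 0.

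The diet difference can be read in 2 sets of arrays that share no sample, saline and leptin. Under saline (CR-s against Con-s) 0 members passed, as did 0% of all genes. The smallest p belonged to Serpinh1 (-0.43, SE 0.06, adjusted p = 0.193), Ogn (-1.10, SE 0.19, adjusted p = 0.255), P4ha1 (-0.37, SE 0.06, adjusted p = 0.255) and Col1a2 (-0.27, SE 0.07, adjusted p = 0.395). At an unadjusted p under 0.05, 7 members were lower and 0 higher, against 5.1% and 3.4% of all genes.

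Under leptin (CR-l against Con-l) 1 member passed, where 0.0207% of genes did: Serpinh1 fell 1.75-fold (log2 -0.81, SE 0.06, interval -0.95 to -0.66, adjusted p = 0.0339). P4ha1 followed at -0.53 (SE 0.06, adjusted p = 0.0605), Ogn at -1.32 (SE 0.19, adjusted p = 0.0613) and Col1a2 at -0.37 (SE 0.07, adjusted p = 0.108), none of which passed. At an unadjusted p under 0.05, 10 members were lower and 1, Fn1, was higher, against 7.27% and 6.92% of all genes. The Serpinh1 call ended without any one of the 8 arrays (adjusted p from 0.0607 to 0.149, value from -0.86 to -0.76), with a replicate block (adjusted p = 0.0799) and with all probe sets tested (adjusted p = 0.176).

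The 7 members at an unadjusted p under 0.05 and lower under saline were Serpinh1, P4ha1, Ogn, Col1a2, Col1a1, Col12a1 and Bgn. All 7 were also lower at that threshold under leptin. Among all genes, 740 were lower at that threshold under saline, and 337 of them (45.5%) were so under leptin as well. The arrays of these comparisons are separate, but a single estimate of each gene's spread serves both.

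**Figure D3:**
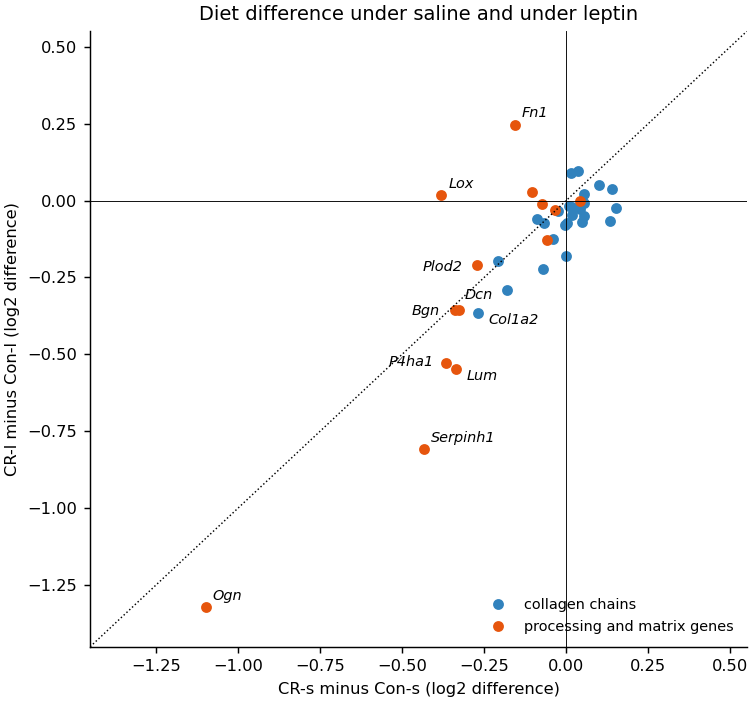
Diet difference of the 39 members under saline (horizontal axis, CR-s minus Con-s, log2) and under leptin (vertical axis, CR-l minus Con-l, log2), with collagen chains in blue, processing and matrix genes in orange and equality as a dotted line. Ogn, Serpinh1, P4ha1 and Lum lie below the line in the lower left, and Fn1 is the named gene with a negative value under saline and a clearly positive one under leptin.

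Whether early leptin moves these genes was asked in each diet. Between CR-l and CR-s, 0 members and 0% of genes passed. Serpinh1 had the smallest p among members, at -0.26 (SE 0.06, interval -0.40 to -0.12, adjusted p = 0.808), further from the Con level. Col16a1, a fibril-associated chain, came next at -0.16 (SE 0.06), followed by Bgn at 0.18 (SE 0.09) and Lox at 0.65 (SE 0.35, interval -0.18 to 1.48). The Lox value was 0.245 without CR-s replicate B, 0.236 without CR-l replicate A, 1.05 without CR-s replicate A and 1.06 without CR-l replicate B. Ogn differed by 0.11 (interval -0.33 to 0.55), or -0.0063 without CR-l replicate B and 0.236 without CR-l replicate A, P4ha1 by -0.07 (interval -0.22 to 0.08) and Col1a2 by -0.11 (interval -0.28 to 0.06). These intervals do not include the distance to controls seen under saline for Ogn, P4ha1 or Col1a2 taken with the opposite sign. That distance has an error of its own and rests on the same CR-s arrays. A direct comparison of CR-l with Con-s was not run, so a return to the Con-s level was not tested. By unadjusted p under 0.05, 2 members were lower and 0 higher (2.81% and 3.05% of all genes).

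Between Con-l and Con-s, 0 members and 0% of genes passed. The smallest p were those of Fn1 (-0.25, SE 0.09), Bgn (0.20, SE 0.09), Serpinh1 (0.11, SE 0.06) and Ogn (0.34, SE 0.19, interval -0.10 to 0.78), each at an adjusted p of 0.997. Con-l replicate A stood high for Bgn and Ogn, and without it their values were 0.06 and 0.04. At an unadjusted p under 0.05, 1 member was lower and 0 higher, against 2.01% and 2.18% of all genes.

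The diet difference under leptin was then set against that under saline (interaction), and 0 members and 0% of genes passed. Serpinh1 had an interaction of -0.37 (SE 0.09, interval -0.57 to -0.17, adjusted p = 0.898), P4ha1 -0.16 (interval -0.37 to 0.05) and Col3a1 -0.18 (interval -0.41 to 0.05). Fn1 had 0.40 (SE 0.12, interval 0.11 to 0.69, adjusted p = 0.898). Its values were 8.96 and 8.79 in Con-s, 8.70 and 8.55 in Con-l, 8.78 and 8.66 in CR-s, and 8.86 and 8.88 in CR-l, so CR was the lower diet under saline and the higher under leptin. By unadjusted p under 0.05, 1 member was lower and 1 higher (2.73% and 2.42% of all genes).

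Other genes of the same pathway were read from lists, in the averaged diet comparison. There 0.882% of all genes were called lower, 0.324% were called higher and 49.7% had a negative difference. Among 22 measured genes of collagen folding, modification and processing outside the set, 0 passed (median -0.02, 1 at an unadjusted p under 0.05 in each direction). P4ha3, a further prolyl hydroxylase subunit, had 0.29 (SE 0.07, adjusted p = 0.113) and Adamts2, which removes the N-terminal propeptide, -0.12 (SE 0.05). Of 16 genes of collagen breakdown and uptake 1 was called, Mmp15, a membrane-bound metalloproteinase, which fell (-0.33, SE 0.04, adjusted p = 0.0233), and the list's median was 0.00.

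Of 9 measured collagen receptors 1 was called, the kinase Ddr1, which fell (-0.35, SE 0.05, adjusted p = 0.0295) and is also known from myelinating oligodendrocytes. Of 14 measured genes of TGF-beta signalling, which drives collagen transcription, the receptor gene Tgfbr1 fell (-0.30, SE 0.05, adjusted p = 0.0372) and the others did not pass. Among 17 measured other matrix proteins of connective tissue 12 had a negative difference (median -0.16). The called member, Igfbp2 (-0.40, SE 0.07, adjusted p = 0.0455), is a binding protein of insulin-like growth factors rather than a structural protein. Of 7 measured laminins and other basement membrane proteins 0 passed, with Nid2, nidogen 2, at -0.15 (SE 0.06) and Lama5 at 0.08 (SE 0.06), and the median was -0.00.

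Levels of cell type markers are given beside these results, since collagen is made by particular cells of a tissue. Their counts stand against 0.882% of all genes called lower, 0.324% called higher and 49.7% with a negative difference. Of 16 measured meningeal fibroblast genes, none of them members, 12 had a negative and 4 a positive difference (median -0.25), and 2 were called lower, Ptgds, a prostaglandin synthase (-1.54, SE 0.13), and Slc6a13, a GABA transporter (-0.60, SE 0.09). Their summed intensity was 3699 to 4114 on the CR arrays and 5532 to 6994 on the Con arrays, highest on Con-l replicate A. That array was also the highest Con array for 15 of the 39 members. Ogn, Bgn, Lum, Dcn, Col1a1, Col1a2 and P4ha1 were among them, and Fmod and Serpinh1 were not. Ptgds made up that separation of the sums in large part: without it the sums were 2869 to 3168 on the CR arrays and 3145 to 3732 on the Con arrays, which overlap. Relative to the Con-s mean, the mean of the meningeal genes stood at 0.22 and -0.02 on arrays A and B of Con-l, and that of the 5 proteoglycans at 0.36 and 0.01. The meningeal mean did not overlap between the diets. It lay between -0.31 and -0.21 on the 4 CR arrays and between -0.02 and 0.22 on the Con arrays. Without Ptgds it lay between -0.22 and -0.12 on the CR arrays and between -0.02 and 0.21 on the Con arrays, again without overlap.

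On replicates A and B of Con-l, Serpinh1 stood at 9.20 and 9.22, P4ha1 at 8.55 and 8.44 and Ogn at 10.20 and 9.60. On those of Con-s, Serpinh1 stood at 9.12 and 9.09, P4ha1 at 8.38 and 8.43 and Ogn at 9.67 and 9.45. A link of these genes to the meningeal list was not tested. Of 12 mural cell genes 11 had a negative difference and 2 were called, Tagln (-0.35, SE 0.04) and Rgs5 (-0.38, SE 0.05), with sums of 3971 to 4237 on CR and 4570 to 4863 on Con arrays. Of 13 measured endothelial genes 0 were called and 8 had a negative difference, with Kdr at -0.29 (SE 0.06, adjusted p = 0.0716), Emcn at -0.18 (SE 0.04, adjusted p = 0.112) and overlapping sums of 4635 to 4833 on CR and 4639 to 4962 on Con arrays. Of 11 measured choroid plexus genes 1 was called, Kcnj13 (-1.17, SE 0.14), while 6 had a positive difference and the median was 0.0059, with sums of 797 to 816 on CR and 812 to 884 on Con arrays.

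Lists for other cell types differed among themselves. All 9 measured oligodendrocyte genes had a negative difference and 2 were called, Ermn (-0.54, SE 0.06) and Cnp (-0.27, SE 0.04), with sums of 31991 to 34690 on CR and 36674 to 39557 on Con arrays. Of 8 astrocyte genes 1 was called (Gfap, -0.94, SE 0.12), while 3 had a positive difference and the median was -0.04, with overlapping sums of 20840 to 22196 on CR and 22119 to 23124 on Con arrays. All 5 measured red blood cell genes were called lower, among them Alas2 (-1.17), Ahsp (-1.46), Slc4a1 (-0.70) and Hbb-b1 (-1.42), a globin gene with near-identical copies, with sums of 1306 to 2124 on CR and 3796 to 5764 on Con arrays. Neither the 10 microglia and macrophage genes (Itgam -0.35, Lyve1 0.26) nor the 6 measured ependyma and tanycyte genes (Scn7a 0.14, Crym 0.13) nor the 7 pituitary genes (Tshb -0.26, Gh1 0.17) held a call. Of the 13 hypothalamic peptide genes 3 were called, with Npy (0.75, SE 0.10) and Agrp (0.70, SE 0.09) higher and Oxt (-0.38, SE 0.07) lower. The part of any of these cell types in the members' differences was not tested.

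**Figure D4:**
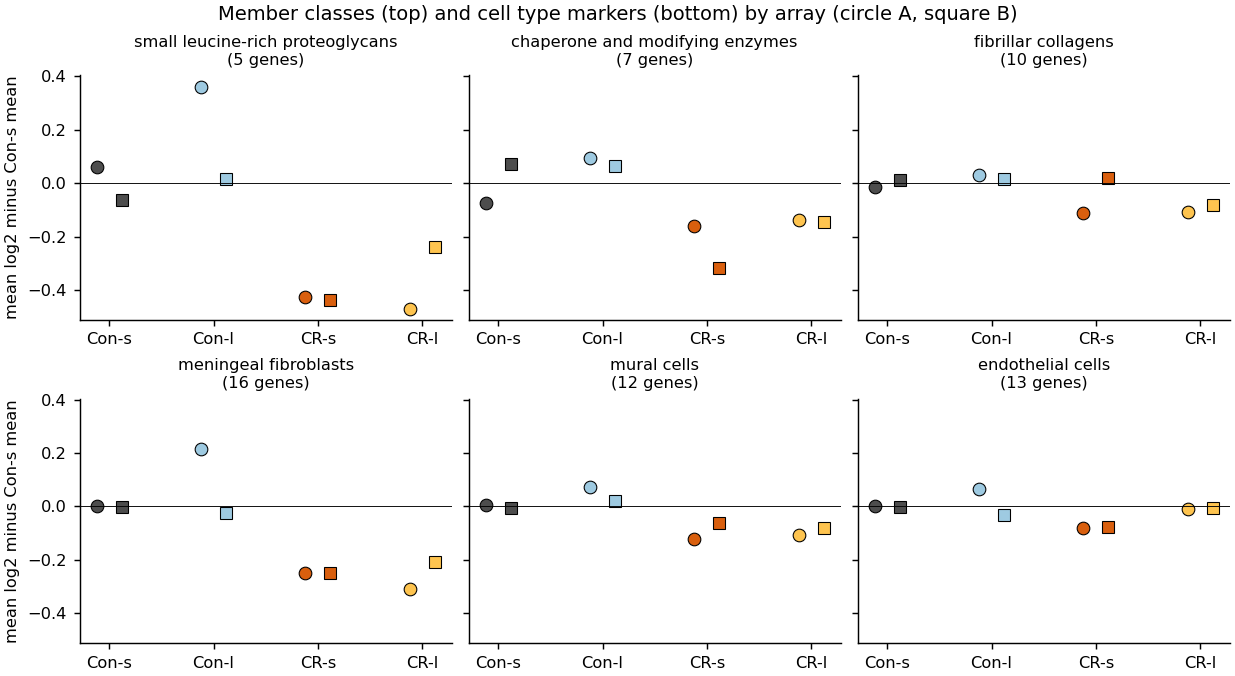
Mean log2 intensity of gene lists on each array relative to the Con-s mean (vertical axis, shared), for 3 member classes in the upper row and markers of 3 cell types in the lower row, with replicate A as a circle and B as a square. Every list shown has its highest mean on Con-l replicate A, from 0.03 for fibrillar collagens to 0.36 for proteoglycans (meningeal 0.22, endothelial 0.06). The proteoglycan, chaperone and enzyme, meningeal and mural means are lower on all CR arrays than on any Con array. Fibrillar collagens and endothelial markers overlap between the diets.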

How the data were processed

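The authors deposited 1 linear intensity for each probe set and array, made with RMA in Affymetrix Expression Console, per the submitters' processing notes, with the scale read from the range of the values. The version and genome build are not given in the sources used here. Values were log2-transformed and not normalized again. Of 29215 probe sets 15310 have 1 gene symbol (323 have several), and names were updated through RefSeq by Entrez number for 15279 and by accession for 6. Of several probe sets of a gene the brightest was kept, which left 14506 genes, and no filter on dim genes was applied.

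All comparisons came from limma 3.58.1 in R 4.3.3 (4 group means over 8 arrays, lmFit and eBayes, two-sided, 4 residual degrees of freedom), with Benjamini-Hochberg adjustment over all 14506 genes. A gene was called at an adjusted p under 0.05. The code was tested on simulated data. The number of arrays limits the precision. Differences are log2, CR minus Con or leptin minus saline.

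Members and gene lists were chosen with earlier results of these data known. In the averaged diet comparison all called members were named, filled to 24 by smallest p, with the 14 named genes and the main collagens, and in each other comparison the 4 with the smallest p. In each pathway and marker list the called genes were named (up to 4), else the 2 with the smallest p. Values given for other members, the Cga level and the sums without Ptgds were chosen after values were seen. Replicate letters did not pair the samples: differences of A and B correlated at -0.06 to 0.11 between groups.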

Additional observations from a re-analysis of the deposited data

Results flagged for a closer look

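Fn1, the fibronectin gene, was lower in both CR-s arrays than in both Con-s arrays and higher in both CR-l arrays than in both Con-l arrays. Under saline the separation was narrow, with 8.775 in CR-s replicate A against 8.787 in Con-s replicate B (difference -0.16, SE 0.09). The diet difference under leptin exceeded that under saline by 0.404344 on the log2 scale (limma adjusted p = 0.898 for the interaction), which did not pass. Col16a1, a fibril-associated collagen, showed the opposite crossing, with CR arrays above Con arrays under saline (0.06, SE 0.06) and below them under leptin (-0.05, SE 0.06), and an interaction of -0.104163 (SE 0.08, adjusted p = 0.91). The share of all genes with such a crossing was not counted, so neither gene can be set apart from the rest by it. With 2 arrays in a group, no array was examined as an outlier within its group.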

How the results depend on the processing

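The count of members called in the averaged diet comparison was 4 as reported, 4 with cyclic loess and with the mean of a gene's probe sets, 7 with trend and robust settings, 7 after keeping the brightest 60 percent of genes (22 members tested) and 0 with all probe sets tested. Without 1 array it ranged from 0 to 3. With the replicate block it was 3, losing Col1a2. Under saline it went from 0 to 1 with the upper 60 percent and 2 with trend and robust settings. Under leptin it went from 1 to 2 with cyclic loess, 4 with the upper 60 percent, 5 with trend and robust settings, 0 with all probe sets, 0 with the replicate block and 0 (lowest and highest) without 1 array. For leptin in either diet and for the interaction it was 0 in every setting run.

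The member median under saline moved from -0.03 to -0.0888 with the upper 60 percent. Without 1 array the member median ranged from -0.0697 to -0.0058 in the averaged diet comparison and from -0.0892 to 0.0023 under saline. For leptin it ranged from -0.0630 to 0.0224 in restricted offspring and from 0.0064 to 0.0649 in controls, and for the interaction from -0.12 to -0.0243. Of the 39 members 15 changed sign without 1 array in the averaged diet comparison, none of them called: Lox (-0.39 to 0.0241), Pcolce (-0.12 to 0.0587), Sparc (-0.0043 to 0.0450), Col10a1 (-0.0490 to 0.200), Col16a1 (-0.0119 to 0.0182), Col23a1 (-0.0011 to 0.0685), Col27a1 (-0.0382 to 0.0851), Col2a1 (-0.0770 to 0.0153), Col4a3 (-0.0296 to 0.0264), Col4a4 (-0.0635 to 0.0439), Col5a2 (-0.0662 to 0.0375), Col6a4 (-0.0942 to 0.108), Col7a1 (-0.0355 to 0.0254), Col8a1 (-0.0078 to 0.112) and Col9a1 (-0.0837 to 0.0121). Col6a4 was also -0.0027 with the mean of its probe sets. For leptin in restricted offspring Ogn ranged from -0.0063 to 0.236. Serpinh1, P4ha1, Ogn and Col1a2 kept their direction in all 14 alternatives and passed in 11, 6, 7 and 4 of them. The cause of these changes was not tested.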
